A study of Mus musculus with 18 samples.

Results

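The tumour necrosis factor (TNF) superfamily comprises small ligands that act as trimers on the cell surface or after cleavage from it, and receptors that pass the signal on through adaptor proteins. The genes described here are the rows of a mouse expression table whose symbols start with Tnfsf (ligands) or Tnfrsf (receptors) followed by a number. The table lists 35869 symbols, and 32 of them match. Of these, 24 reached 1 TPM (a gene's share of a library's transcripts after scaling to transcript length) in at least 4 of 17 libraries and are described: 16 receptors, 7 ligands and Tnfsf13os, an antisense RNA of the Tnfsf13 locus. The other 8 reached 1 TPM in fewer libraries or in none. Their highest values were 1.6 TPM for Tnfrsf13c, 0.6 for Tnfrsf25, 0.3 for Tnfrsf8, 0.2 for Tnfrsf9, 0.2 for Tnfsf4, 2.4 for Tnfsf11, 2.1 for Tnfsf14 and 0.7 for Tnfsf15. Just inside the level lay Tnfrsf10b (4 libraries, highest 1.4 TPM) and Tnfsf8 (4 libraries, highest 2.5 TPM), and just outside it Tnfrsf13c (3 libraries).

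The study sorted microglia and astrocytes by flow cytometry from enzymatically dissociated adult brain and sequenced their RNA, to ask what the loss of the TGF-beta 1 ligand from microglia changes in both cell types. All animals were C57BL/6 mice with the tamoxifen-inducible Cx3cr1CreERT2 driver, whose promoter is active in microglia and in other Cx3cr1-expressing macrophages. Controls carried the driver alone, and knockout (KO) mice were Cx3cr1CreERT2-Tgfb1fl/fl, with floxed Tgfb1 alleles. Every animal, controls included, received 5 oral doses of tamoxifen at 180 mg/kg. The labels state neither an age in weeks nor the sex. Microglia were read from 4 control animals (numbers 1, 2, 4 and 5) and from 4 KO animals, and astrocytes from 5 control and 4 KO animals. Control and KO animals with the same number are different mice, whereas the microglia and astrocytes of 1 number and genotype came from the same mouse. A further library, whose labels name both cell types, was not used.

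TNF receptors fall into those with an intracellular death domain, such as Tnfrsf1a (TNF receptor type 1) and Tnfrsf21 (death receptor 6), and those that bind TRAF adaptors directly, such as Tnfrsf1b (TNF receptor type 2). Both kinds feed into the IKK kinases and NF-kB, and death domain receptors can also start caspase-dependent death. Several members act as decoys that bind ligand without signalling. In brain, microglia are the main source of TNF itself, and the family is known for roles in inflammation, myelin repair and axon pruning.

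Genes at 1 TPM or more numbered 12456 to 13127 in microglia and 14086 to 15484 in astrocytes. Tgfb1 lay at 2.8 to 3.4 TPM in control and 1.3 to 2.0 TPM in KO microglia, and at no more than 0.3 TPM in any astrocyte library. Of 10 microglial markers, the summed level was 46048.2 to 49317.1 TPM in control and 17010.4 to 18424.0 TPM in KO microglia. The summed level of 10 border-associated macrophage markers was 433.9 to 795.2 TPM in control and 6156.0 to 7037.0 TPM in KO microglia, and all 10 of these markers reached 1 TPM in both groups. Limma called 7 of the 10 higher and 1, Cbr2, lower (means of 60.2 and 40.4 TPM). Pf4, Mrc1 and Ms4a7 made up most of the sum, and Lyve1 (32.5 and 8.95 TPM) and Cd163 (8.88 and 13.3 TPM) did not pass. Monocyte markers summed to 6.0 to 11.3 TPM in control and 26.4 to 29.4 TPM in KO microglia, and the higher sum was Itga4 alone (0.2 to 1.6 TPM in control and 22.5 to 28.4 TPM in KO microglia). Of the other monocyte markers, Ccr2 was lower in KO microglia (4.4 to 8.5 TPM and 0.9 to 4.0 TPM), Plac8 was at 0 there and Chil3 was at 0 in both groups. T and NK cell markers summed to 9.2 to 17.7 TPM and 3.5 to 8.9 TPM, and Cd3e was at 0 in the controls. Of 3 of them tested, limma called 1, Klrd1, lower (4.6 to 8.3 TPM in control and 0.0 to 0.2 TPM in KO microglia). Cd3g went the other way (0.0 to 0.1 TPM and 0.8 to 5.6 TPM). The 10 astrocyte markers summed to 22193.6 to 25080.6 TPM in control and 16165.8 to 28519.3 TPM in KO astrocytes. Mural and fibroblast-like markers summed to 206.2 to 3219.8 TPM in control astrocytes and to 6385.0, 766.0, 9649.2 and 3647.1 TPM in KO astrocytes 1 to 4. The Y-linked gene Ddx3y was at 0 TPM in all 8 KO libraries and at 46.0 to 56.3 TPM in the libraries of control animals 3, 4 and 5, and Xist was at 28.6 to 48.3 TPM in the KO libraries and those of control animals 1 and 2. Sex as read from these genes was therefore mixed in the control group and not in the KO group. Results were recomputed without single libraries, against each kind of control and, for astrocytes, without KO libraries 1 and 3. Beyond that, the part of these differences in the results below was not tested. In sorted bulk RNA, fewer cells of a type and less RNA per cell cannot be told apart.

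In control mice the family was divided between the cell types. Of 21 members that passed the level filter, 11 were higher in microglia, 4 were higher in astrocytes and 6 did not pass the test (limma on log2(TPM + 1), Benjamini-Hochberg adjusted p under 0.05 over all genes). Of all 15332 genes tested, 65.7% passed, against 71.4% of the members. The filter asks for 1 TPM in any 4 libraries. Members near 0 in 1 cell type, such as Tnfrsf11a and Tnfrsf19, therefore entered only through the other type. For these a call largely followed from entry, as it did for other genes of this kind, so the counts and shares are a description only. The share of all genes higher in microglia was 26.2% and the share lower was 39.5%, a split that depends on scaling: 4016 genes were higher and 6062 lower on the deposited scale, and 5534 higher and 4850 lower after quantile normalization, with the median of all genes at -0.19 and 0.11 log2 units. The members' median was 1.16 log2 units.

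The microglial receptors were led by both TNF receptors, TACI and death receptor 6. Tnfrsf1b averaged 163.5 TPM ± 31.1 (SD, n = 4) in control microglia and was between 0.0 and 0.1 TPM in control astrocytes. Tnfrsf13b (TACI, a receptor for the B cell survival factors BAFF and APRIL) averaged 135.5 TPM ± 16.1 (SD, n = 4) against 0.64 TPM ± 0.713 (SD, n = 5). Every microglial library was thus above every astrocyte library for both receptors, and no control astrocyte library exceeded 1.8 TPM. By limma, Tnfrsf1b was 7.26 log2 units higher in microglia (SE 0.15, adjusted p = 6.41e-11). For Tnfrsf13b the difference was 6.47 (SE 0.28, adjusted p = 8.81e-09).

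Tnfrsf1a, the death domain receptor for TNF, was the exception among the abundant receptors, with high levels in both cell types. Its mean of 197.5 TPM ± 23.1 in microglia and that of 86.6 TPM ± 9.35 in astrocytes were 1.18 log2 units apart (SE 0.11, limma adjusted p = 6.02e-06). Tnfrsf21 averaged 164.9 TPM ± 24.8 in control microglia against 12.6 TPM ± 5.87 in control astrocytes (3.76 log2 units, SE 0.38, limma adjusted p = 8.44e-06). In the order of levels within control microglia, Tnfrsf1a, Tnfrsf21, Tnfrsf1b and Tnfrsf13b differed by about the spread between libraries: their ranges were 163.6 to 213.6, 133.9 to 187.5, 138.8 to 208.5 and 114.6 to 151.4 TPM. A clear step separated them from Tnfrsf17 (BCMA, the other shared BAFF and APRIL receptor) at 19.7 to 34.6 TPM, followed by Tnfrsf11a (RANK, the osteoclast differentiation receptor) at 14.2 to 20.4 TPM and Tnfrsf14 (HVEM, a receptor for LIGHT) at 12.9 to 16.0 TPM. In control astrocytes they averaged 0.1, 0.02 and 0.22 TPM, and by limma they were 4.65, 4.11 and 3.65 log2 units higher in microglia. Tnfrsf26 was the weakest of the microglial calls, with overlapping values and 1.16 log2 units (SE 0.44, limma adjusted p = 0.038). Without control astrocytes 1, 2, 3 or 5 its adjusted p was 0.0685 to 0.0721.

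B cell receptors for BAFF and APRIL are textbook lymphocyte genes, so the B cell markers were read beside them. Among them, Cd79a did not exceed 1.0 TPM and Ms4a1 did not exceed 3.2 TPM in any library. The summed level, 74.7 to 105.2 TPM in control and 74.9 to 92.0 TPM in KO microglia, was almost all Cd79b.

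The astrocyte libraries held a different set of receptors. Tnfrsf19 (TROY, an orphan receptor of neural progenitors and glia) averaged 107.4 TPM ± 12.3 (SD, n = 5) in control astrocytes and did not exceed 0.8 TPM in any microglial library, a difference of -6.56 log2 units for microglia against astrocytes (SE 0.15, limma adjusted p = 9.61e-11). Tnfrsf1a followed it in control astrocytes, at 75.4 to 99.9 TPM against 92.8 to 122.6 TPM for Tnfrsf19. These ranges overlapped, but Tnfrsf19 was the higher of the pair in each of the 5 libraries. The other receptors higher in astrocyte libraries were an order lower. Tnfrsf11b (osteoprotegerin, a secreted decoy for RANK ligand) averaged 3.74 TPM ± 1.08 and was at 0 in all 8 microglial libraries. It was at 2.7, 3.1, 3.2, 5.3 and 4.4 TPM in control astrocytes 1 to 5, and at 8.4, 2.9, 5.6 and 1.4 TPM in KO astrocytes 1 to 4. In the controls, mural and fibroblast-like sums were 456.5, 206.2, 1069.1, 3219.8 and 2914.4 TPM. Their oligodendrocyte sums were 3852.5 to 5837.5 TPM. Which cells in these libraries held each receptor was not tested. Tnfrsf18 (GITR) averaged 3.10 TPM ± 1.62 in control astrocytes and at most 0.1 TPM in control microglia.

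Among the ligands, Tnfsf12 (TWEAK) had the highest mean in both cell types of control mice, though in microglia its range of 14.5 to 31.0 TPM overlapped that of Tnfsf13b (13.3 to 21.6 TPM). Tnfsf12 averaged 21.3 TPM ± 7.4 (SD, n = 4) in microglia and 26.2 TPM ± 5.64 (SD, n = 5) in astrocytes of control mice and did not pass the test between them. Tnfsf13b (BAFF) and Tnfsf10 (TRAIL) were higher in microglia, by 4.02 and 2.55 log2 units. Tnfsf13 (APRIL) was higher in astrocytes, with 15.7 TPM ± 2.43 against 5.73 TPM ± 2.34 in control microglia (-1.37 log2 units, SE 0.24, limma adjusted p = 4.84e-04). Tnfsf9 (the ligand of 4-1BB) differed by 0.14 log2 units (95% confidence interval -0.49 to 0.78) and did not pass. The map of levels in all libraries shows the microglial and astrocytic blocks.

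**Figure D1:**
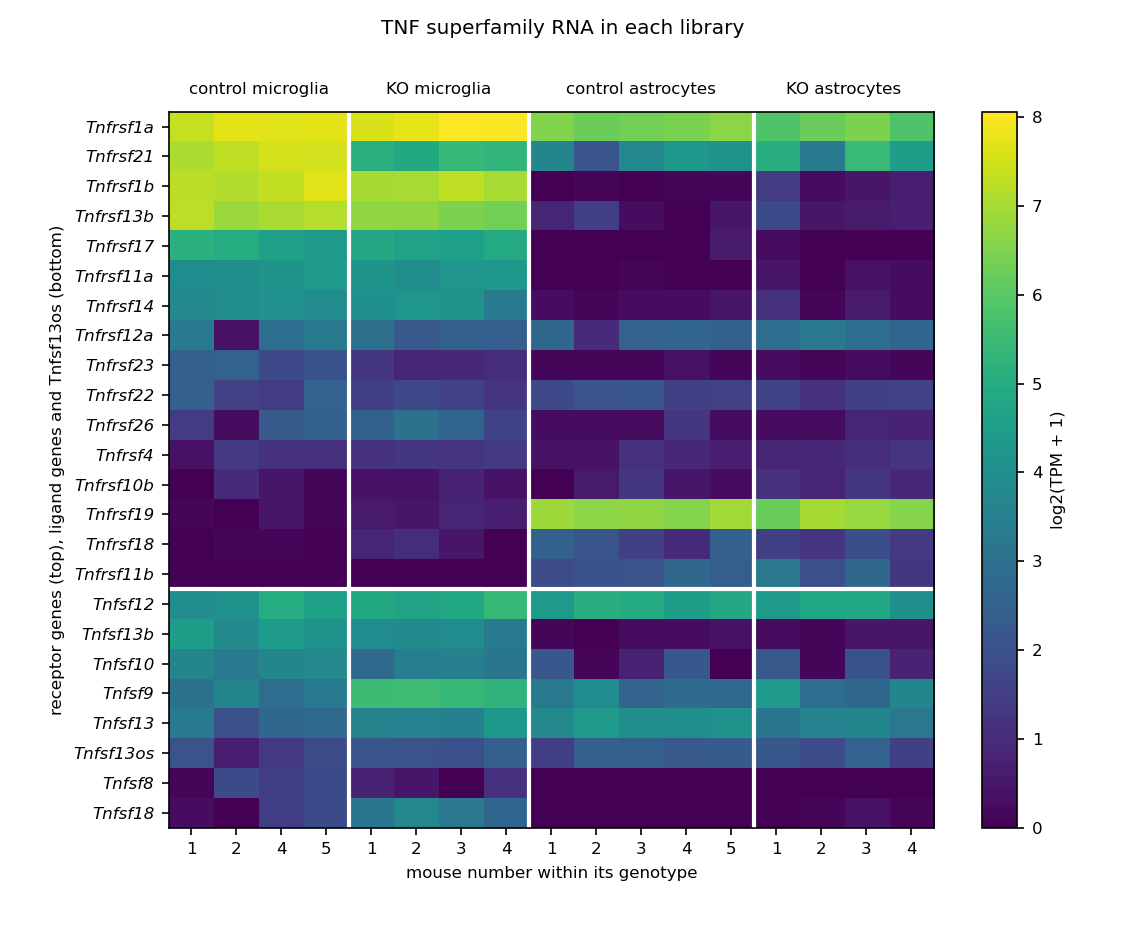
Level of each of the 24 described TNF family members in each of the 17 libraries, as log2(TPM + 1), with receptors and ligands set apart and libraries ordered by group. Tnfrsf1b, Tnfrsf13b and Tnfrsf17 are high across microglia and near 0 in astrocytes, Tnfrsf19 shows the opposite, and Tnfrsf21 and Tnfsf9 change between control and KO microglia.

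The central comparison set KO against control microglia. Of 20 members that passed the level filter (12 did not), 3 rose, 3 fell and 14 did not pass the test. The ligands Tnfsf9, Tnfsf18 and Tnfsf13 rose, and the receptors Tnfrsf21, Tnfrsf23 and Tnfrsf13b fell. The members called were 30.0% of those tested, against 28.4% of all 13054 genes, with 14.2% of all genes higher and 14.2% lower, so the share is close to the background. The members' median was 0.01 log2 units and that of all genes 0.00. The values of 6 members did not overlap between the groups, against 30.6% of all genes.

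Tnfrsf21 (death receptor 6) is a death domain receptor known in neurons and oligodendrocytes for axon degeneration and delayed myelination. It stood at 133.9, 156.1, 187.5 and 182.0 TPM in control microglia 1, 2, 4 and 5, and at 33.8, 28.7, 41.0 and 38.2 TPM in KO microglia 1 to 4. The highest KO library was far below the lowest control library. Tnfrsf21 fell by 2.19 log2 units (SE 0.15, limma adjusted p = 5.02e-06), from a mean of 164.9 TPM ± 24.8 to 35.4 TPM ± 5.37 (SD, n = 4 each). By mean it was among the 4 highest family receptors in both groups. In KO microglia it lay between Tnfrsf13b (94.4 TPM) and Tnfrsf17 (26.0 TPM).

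Tnfrsf23 is a mouse decoy receptor for TRAIL without a death domain. Its values were 4.5, 4.8, 2.4 and 3.1 TPM in control microglia and 1.4, 0.8, 0.9 and 1.1 TPM in KO microglia. The groups did not overlap, at levels low in both. Tnfrsf23 fell by 1.17 log2 units (SE 0.22, limma adjusted p = 0.00295).

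Tnfrsf13b stood at 151.4, 114.6, 132.0 and 144.1 TPM in control microglia and 104.6, 104.9, 87.2 and 81.0 TPM in KO microglia. The lowest control library lay just above the highest KO library. Tnfrsf13b fell by 0.52 log2 units (SE 0.13, limma adjusted p = 0.0126), the smallest of the 6 changes. Against control animals 1 and 2 alone the adjusted p was 0.0728, and with the spread estimated over all groups it was 0.267.

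Tnfsf9 encodes the ligand of 4-1BB, a costimulatory receptor of T cells. It was at 7.0, 11.5, 6.5 and 8.7 TPM in control microglia and at 45.6, 46.3, 41.1 and 37.1 TPM in KO microglia. All 4 KO libraries lay close together and well above every control. Tnfsf9 rose by 2.23 log2 units (SE 0.18, limma adjusted p = 1.38e-05), to 42.5 TPM ± 4.29 (SD, n = 4), the highest mean of any family ligand in any group. The mRNA of its receptor Tnfrsf9 did not exceed 0.2 TPM in any library.

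Tnfsf18 encodes the ligand of GITR, another T cell costimulatory receptor. It was at 0.2, 0.0, 1.8 and 2.5 TPM in control microglia and at 7.7, 12.6, 8.1 and 5.0 TPM in KO microglia. Control animals 1 and 2 were near 0 and animals 4 and 5 somewhat higher, and every KO library was above all controls. Tnfsf18 rose by 2.28 log2 units (SE 0.43, limma adjusted p = 0.00329), and the size depended on the controls: 3.03 against animals 1 and 2 and 1.52 against animals 4 and 5. Its receptor Tnfrsf18 was at 0.8, 1.1, 0.4 and 0.0 TPM in KO microglia and at most 0.1 TPM in control microglia, below the filter.

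Tnfsf13 (APRIL) was at 8.7, 3.0, 5.4 and 5.8 TPM in control microglia and at 11.3, 10.9, 10.6 and 18.6 TPM in KO microglia. KO microglia 4 stood above the other KO libraries, which were close to each other. Tnfsf13 rose by 1.08 log2 units (SE 0.28, limma adjusted p = 0.0186). Without KO microglia 4 it was 0.90 higher with an adjusted p of 0.0521, and against control animals 1 and 2 alone the adjusted p was 0.0744.

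**Figure D2:**
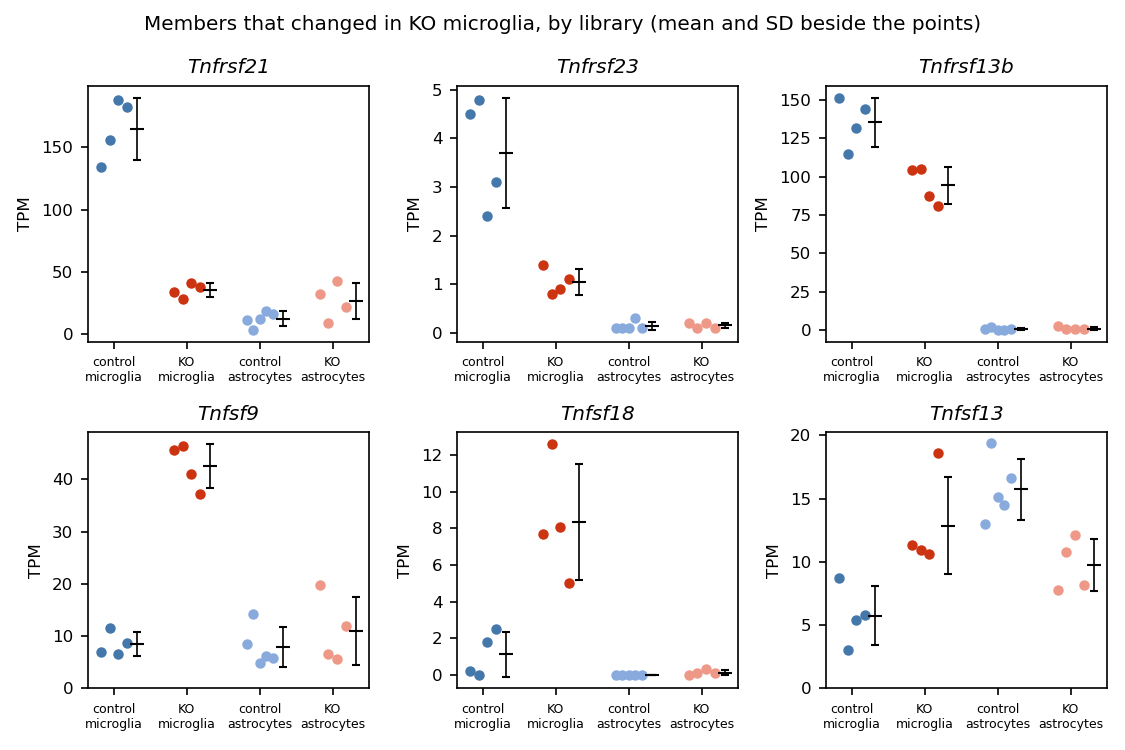
TPM of the 6 members that changed in KO microglia, in each library (points) of control and KO microglia and control and KO astrocytes, with the group mean and SD beside them. In microglia the control and KO points do not overlap in any panel, with Tnfrsf21 falling from 164.9 to 35.4 TPM and Tnfsf9 rising from 8.43 to 42.5 TPM on average.

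The stretch just before the transcription start is printed for 3 of the 4 changed members whose calls held in every alternative fit (the other is Tnfsf9), so that the upstream DNA can be read beside the fall of Tnfrsf21 and Tnfrsf23 and the rise of Tnfsf18. Each is 250 bases on the gene's strand, 5′ to 3′, from RefSeq on GRCm38.p6, and capitals mark the PU.1 core GAGGAA or its reverse complement TTCCTC. PU.1 is the lineage transcription factor of macrophages and microglia. The windows are chr17:43016305-43016554 on the plus strand for Tnfrsf21, chr7:143685876-143686125 on the minus strand for Tnfrsf23 and chr1:161494407-161494656 on the plus strand for Tnfsf18.
Tnfrsf21: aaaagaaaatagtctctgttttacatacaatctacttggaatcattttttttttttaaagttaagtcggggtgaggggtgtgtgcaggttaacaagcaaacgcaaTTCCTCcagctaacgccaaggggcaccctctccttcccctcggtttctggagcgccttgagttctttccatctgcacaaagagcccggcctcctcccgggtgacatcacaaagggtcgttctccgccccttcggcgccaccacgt
Tnfrsf23: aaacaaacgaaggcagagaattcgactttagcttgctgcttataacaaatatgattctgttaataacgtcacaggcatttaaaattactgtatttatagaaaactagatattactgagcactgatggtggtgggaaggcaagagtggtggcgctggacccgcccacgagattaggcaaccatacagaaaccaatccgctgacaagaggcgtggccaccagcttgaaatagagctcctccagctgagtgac
Tnfsf18: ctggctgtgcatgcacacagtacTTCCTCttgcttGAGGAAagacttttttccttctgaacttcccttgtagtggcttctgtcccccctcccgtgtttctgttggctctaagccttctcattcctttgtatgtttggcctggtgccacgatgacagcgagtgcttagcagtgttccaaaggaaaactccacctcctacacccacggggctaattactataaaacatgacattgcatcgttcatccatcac
The PU.1 core was found 2 times in the window of Tnfsf18, starting at -227 and -215 from the start, 1 time for Tnfrsf21 at -145 and not for Tnfrsf23. No matches in these windows overlap. On either strand it is in 23.3% of 32851 promoter windows of this length. The SMAD box CAGAC, a letter string bound by the transcription factors of TGF-beta signalling, is in 42.2% of all windows and in none of these 3. The AP-1 site TGANTCA (6.75% of all windows), the interferon-stimulated response element (2.98%) and the NF-kB site (7.25%) were not found in the 3 windows either. Over the whole family, 24 of 32 members have an entry, with 28 windows, of which 14 hold the SMAD box, 5 the AP-1 site, 3 the NF-kB site, 4 the interferon element and 9 the PU.1 core. A match of letters is a description of the sequence and not a measured site.

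Positions in the annotation bear on how firmly some values can be read. On GRCm38 (GENCODE M21), Tnfrsf21 spans chr17:43016555-43089189 on the plus strand. Tnfrsf23 lies at chr7:143665809-143685872 beside Tnfrsf22 (chr7:143634806-143649661) and Tnfrsf26 (chr7:143607659-143628722), all on the minus strand and all overlapped by E230032D23Rik on the other strand. Tnfrsf22 and Tnfrsf23 are close paralogs, so reads could be split between them. Of the other members of this cluster, Tnfrsf22 averaged 3.28 TPM ± 1.65 in control and 1.88 TPM ± 0.419 in KO microglia (limma adjusted p = 0.240), and Tnfrsf26 averaged 2.63 TPM ± 2.05 and 4.75 TPM ± 2.09 (limma adjusted p = 0.261). Neither passed the test, and whether they differed from Tnfrsf23 was not tested.

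Tnfsf13 (chr11:69682846-69685784) and Tnfsf12 (chr11:69686250-69695849) lie head to tail on the minus strand of chromosome 11. The readthrough gene Tnfsfm13 (chr11:69682577-69696098) covers both on the same strand, and Tnfsf13os (chr11:69682138-69691141) runs antisense, so their values cannot be fully told apart and are uncertain. Tnfsfm13 averaged 7.0 TPM in control and 13.4 TPM in KO microglia. Tnfsf12 stood at 14.5, 16.7, 31.0 and 23.0 TPM in control and 28.8, 25.0, 27.0 and 41.4 TPM in KO microglia, with overlap, 0.53 log2 units apart (95% confidence interval -0.02 to 1.08, limma adjusted p = 0.143). The difference in Tnfsf12 depended on the controls. It was 0.90 against animals 1 and 2 (limma adjusted p = 0.0218) and 0.16 against animals 4 and 5 (adjusted p = 0.632). Without control microglia 4 it was 0.72 with an adjusted p of 0.0424. Tnfsf13os averaged 2.03 TPM ± 1.16 and 3.50 TPM ± 0.698, 0.65 log2 units apart (limma adjusted p = 0.141).

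Tnfsf9 (chr17:57105325-57107757, plus strand) neighbours Cd70 and Tnfsf14, which encode the ligands of CD27 and of HVEM, and is overlapped by the antisense gene Gm11110. Tnfsf14 stayed at or below 2.1 TPM. Tnfsf18 (chr1:161494655-161505290, plus strand) neighbours Tnfsf4, the OX40 ligand, which did not exceed 0.2 TPM. Tnfrsf13b (chr11:61126755-61149372, plus strand) is overlapped by Gm12269 on the other strand.

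The 14 members that did not pass in microglia include the main TNF receptors. Tnfrsf1a was at 163.6, 210.6, 202.1 and 213.6 TPM in control and 189.2, 217.9, 266.5 and 258.0 TPM in KO microglia, a difference of 0.23 log2 units (95% confidence interval -0.07 to 0.53, limma adjusted p = 0.243). Tnfrsf1b was at 147.8, 138.8, 158.9 and 208.5 TPM in control and 124.1, 129.1, 154.2 and 128.7 TPM in KO microglia, a difference of -0.27 (95% confidence interval -0.58 to 0.04, limma adjusted p = 0.178). The groups overlapped for both receptors, and both intervals leave out a change of 1 log2 unit in either direction. Tnfsf13b (BAFF) was at 21.6, 13.3, 20.7 and 16.5 TPM in control and 14.2, 13.2, 14.1 and 9.3 TPM in KO microglia, -0.47 log2 units apart (95% confidence interval -0.91 to -0.03, limma adjusted p = 0.107). Without control microglia 2, its adjusted p was 0.040.

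Among receptors at middle levels, KO and control means were close. Tnfrsf17 averaged 27.0 TPM ± 6.81 in control and 26.0 TPM ± 3.36 in KO microglia, and Tnfrsf14 14.3 TPM ± 1.29 and 14.6 TPM ± 3.95, and Tnfrsf11a ranged from 14.2 to 20.4 TPM and from 14.4 to 18.8 TPM. Their adjusted p was 0.914 to 0.985 by limma. Thus of the BAFF and APRIL system, TACI fell, APRIL rose, and BCMA and BAFF did not pass. Tnfsf10 (TRAIL) averaged 11.3 TPM ± 1.75 and 8.43 TPM ± 2.01 (limma adjusted p = 0.170). Tnfrsf12a (the TWEAK receptor Fn14) averaged 6.05 TPM ± 3.95 and 4.88 TPM ± 1.33 with 0.3 TPM in control microglia 2 and 6.6 to 8.7 TPM in the other controls. Tnfsf8 (CD30 ligand) averaged 1.73 TPM ± 1.13 and 0.575 TPM ± 0.506, and Tnfrsf4 (OX40) 1.08 TPM ± 0.550 and 1.38 TPM ± 0.171, and neither passed the test.

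Summed over all members, described or not, receptor mRNA was 736.9 TPM ± 67.5 (SD, n = 4) in control and 570.2 TPM ± 38.7 in KO microglia. Ligand mRNA, without Tnfsf13os, was 68.4 TPM ± 10.6 and 116.7 TPM ± 3.68. Without Tnfrsf21 the receptor sums were 572.0 TPM ± 49.3 and 534.8 TPM ± 34.9, with overlapping ranges. Without Tnfsf9 the ligand sums were 59.9 TPM ± 12.4 and 74.2 TPM ± 6.45, also overlapping. The plot of log2 differences shows each tested member on the log2 scale, which does not give its part in these sums.

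**Figure D3:**
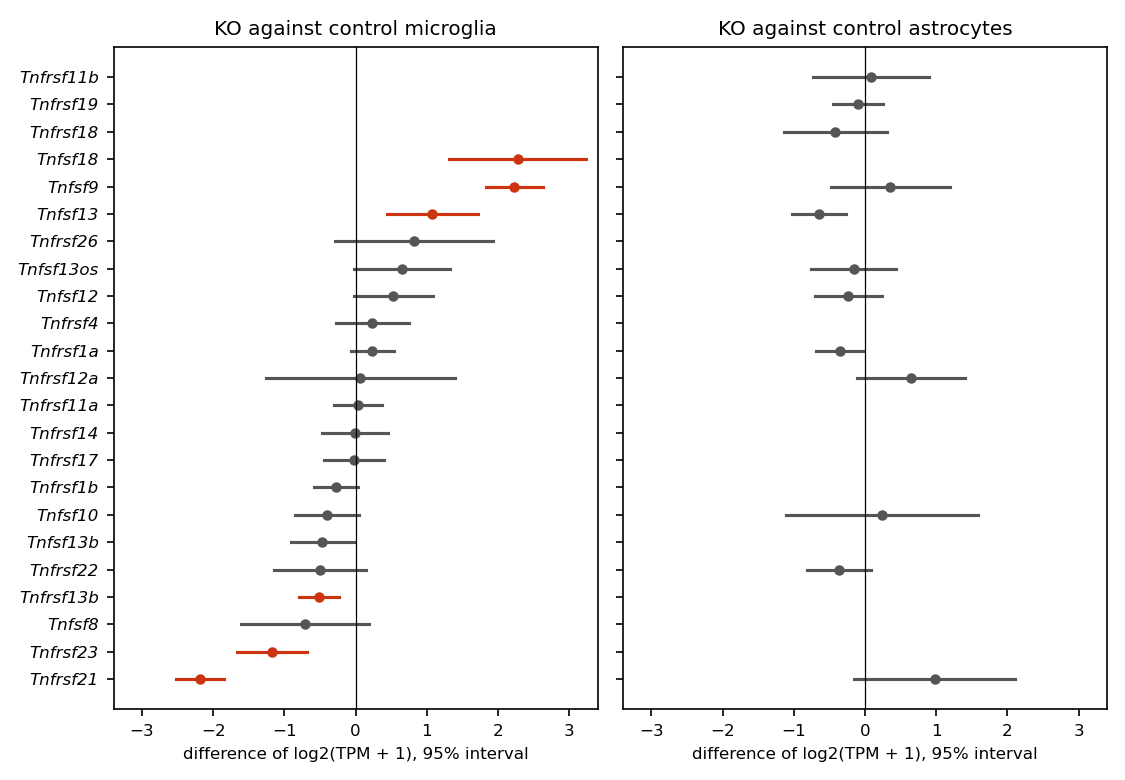
Log2 difference in log2(TPM + 1), with 95% confidence intervals, between KO and control microglia and between KO and control astrocytes, for each member that passed the level filter. Red marks members past an adjusted p of 0.05, and rows left empty in a panel are members below the filter there. Tnfsf9, Tnfsf18 and Tnfsf13 lie above 0 and Tnfrsf21, Tnfrsf23 and Tnfrsf13b below 0 in microglia, and no member is marked in astrocytes.

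In astrocytes none of 12 members that passed the filter was called by limma between KO and control mice, with 2 at an unadjusted p under 0.05. Only 0.00657% of all 15231 genes tested were called, which is 1 gene. The members' median was -0.13 log2 units and that of all genes 0.07. The values of 1 member, Tnfsf13, did not overlap between the groups, against 4.4% of all genes.

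Tnfsf13 was at 13, 19.4, 15.1, 14.5 and 16.6 TPM in control astrocytes and 7.8, 10.8, 12.1 and 8.2 TPM in KO astrocytes. Every KO library lay below every control library. The difference was -0.65 log2 units (SE 0.17), with an unadjusted p of 0.00323 and an adjusted p of 0.284 by limma. Tnfrsf1a averaged 86.6 TPM ± 9.35 in control and 68.7 TPM ± 15.1 in KO astrocytes, a difference of -0.35 (unadjusted p = 0.0417, limma adjusted p = 0.380).

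Tnfrsf21 in astrocytes stood at 11.6, 3.4, 12.7, 18.8 and 16.3 TPM in control and 32.5, 8.8, 42.4 and 21.9 TPM in KO mice. KO libraries 1 and 3, the highest for Tnfrsf21, are also those with the highest mural and fibroblast-like marker sums (6385.0 and 9649.2 TPM). The endothelial marker sums were highest in the same 2 libraries (441.5 and 242.7 TPM, against 27.9 to 137.2 TPM in controls), and the oligodendrocyte marker sums were 5848.7 to 14652.0 TPM in the KO and 3852.5 to 5837.5 TPM in the control libraries. The difference in Tnfrsf21 was 0.98 log2 units (95% confidence interval -0.15 to 2.11, limma adjusted p = 0.436). Without KO libraries 1 and 3 it was 0.31 (limma adjusted p = 0.906). Those libraries hold the 2 highest Tnfrsf21 values, so leaving them out had to lower the difference. KO library 4, which was kept, was at 21.9 TPM, above every control library, and had the highest oligodendrocyte sum (14652.0 TPM). Whether other cells in the libraries set the Tnfrsf21 difference was not tested. The astrocytic receptor Tnfrsf19 averaged 107.4 TPM ± 12.3 in control and 101.5 TPM ± 22.7 in KO mice, -0.10 log2 units apart (95% confidence interval -0.46 to 0.25). Tnfsf9 was at 8.5, 14.2, 4.9, 6.1 and 5.8 TPM in control and 19.7, 6.5, 5.6 and 11.9 TPM in KO astrocytes, without separation.

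Whether the KO effect differed between the cell types was tested directly, as the effect in microglia minus that in astrocytes. Of 24 members, 3 were higher and 3 lower, which is 25.0%, against 15.5% of all 17087 genes (6.63% higher and 8.87% lower). Tnfrsf21 differed by -3.17 log2 units (SE 0.59, limma adjusted p = 0.00131), and without KO astrocytes 1 and 3 by -2.49 (adjusted p = 0.0118). Tnfrsf23 differed by -1.19 (SE 0.23, limma adjusted p = 0.00183). It was between 0.1 and 0.3 TPM in every astrocyte library, so an effect there could hardly be measured. Tnfrsf13b, the other receptor that fell in microglia, did not pass (-0.79, limma adjusted p = 0.232), and it did not exceed 2.5 TPM in astrocytes.

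Tnfsf13 differed by 1.72 log2 units (SE 0.33, limma adjusted p = 0.00158), with higher KO values in microglia and lower KO values in astrocytes. Control microglia (5.73 TPM) were below control astrocytes (15.7 TPM), whereas KO microglia averaged 12.9 TPM ± 3.84 and KO astrocytes 9.73 TPM ± 2.07. Tnfsf18 differed by 2.11 (SE 0.45, limma adjusted p = 0.00392). It was at 0 in all 5 control astrocyte libraries and at 0.0, 0.1, 0.3 and 0.1 TPM in KO astrocytes, which likewise leaves little to measure there, and with a pseudocount of 0.1 TPM the adjusted p was 0.12. Tnfsf9 differed by 1.87 (SE 0.46, limma adjusted p = 0.00943).

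The sixth, Tnfrsf1b, differed by -0.90 log2 units (SE 0.28, limma adjusted p = 0.0352), although it did not pass in microglia and lay below the filter in astrocytes, where it was not tested. In astrocytes it was at 0.0, 0.1, 0.0, 0.1 and 0.1 TPM in control and 1.7, 0.2, 0.4 and 0.6 TPM in KO mice, so part of the difference lies between values under 2 TPM. Microglial marker sums were 317.6 to 399.6 TPM in control astrocytes and 549.6, 368.4, 337.7 and 267.3 TPM in KO astrocytes 1 to 4. The part of microglial RNA in the Tnfrsf1b difference was not tested. The call held in 13 of 28 alternative fits. With the animal as a block it was -0.88 (adjusted p = 0.0858), and without KO astrocytes 1 and 3 it was -0.66 (adjusted p = 0.0709).

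Family members with other symbols were read beside these. Among 7 such ligands 2 passed the filter in microglia. Ltb (lymphotoxin beta) was at 7.3, 16.0, 16.4 and 9.7 TPM in control and 4.0, 3.2, 1.2 and 7.6 TPM in KO microglia. The highest KO library slightly exceeded the lowest control library. Ltb fell by 1.51 log2 units (SE 0.41, limma adjusted p = 0.0207), and the adjusted p was 0.0573 without control microglia 4 and 0.0522 without KO microglia 2. Tnf itself was at 8.2, 2.1, 4.3 and 6.0 TPM in control and 15.2, 17.1, 12.2 and 5.3 TPM in KO microglia and at 0 in all astrocyte libraries. Its groups overlapped through KO microglia 4, and the difference of 1.13 log2 units did not pass (limma adjusted p = 0.065).

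Of 8 receptors with other symbols, 3 passed the filter in microglia and none was called by limma, with 1 at an unadjusted p under 0.05. Fas, a death domain receptor, was at 0.0, 0.0, 3.3 and 6.3 TPM in control and 4.3, 7.1, 5.3 and 5.1 TPM in KO microglia (1.43 log2 units, limma adjusted p = 0.117). Cd70 was at 4.3, 7.4, 2.1, 1.5 and 1.3 TPM in control astrocytes and at 115.9, 1.2, 2.4 and 1.2 TPM in KO astrocytes, so 1 library set its KO mean. In astrocytes, 1 ligand and 4 receptors of these lists were tested and limma called none, with 0 at an unadjusted p under 0.05. The KO effect on Ltb differed between the cell types by -2.20 log2 units (limma adjusted p = 0.011). In astrocytes Ltb was at 0.0 to 0.8 TPM in control and 0.2 to 2.0 TPM in KO mice. Part of that difference therefore lies between values of at most 2.0 TPM.

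Downstream genes were taken from 4 lists of TNF signalling. Of 22 receptor adaptors and cell death genes, 19 were tested in microglia, and 4 rose (Tradd, Mlkl, Birc3 and Tank) and 5 fell (Traf5, Casp8, Cflar, Bid and Diablo), with a median of -0.13 log2 units. That is 47.4% of those tested, beside 28.4% of all genes. Traf5, an adaptor of TRAF-binding receptors, went from 142.9 TPM ± 23.4 to 56.1 TPM ± 5.02 (SD, n = 4 each, -1.32 log2 units, limma adjusted p = 5.82e-05). Tank, a TRAF-binding regulator of NF-kB, went from 7.7 TPM ± 1.91 to 20.3 TPM ± 3.59 (1.30, limma adjusted p = 9.63e-04). Bid (-0.76) and Casp8 (-0.64), which relay death receptor signals, fell as well, with limma adjusted p of 0.00103 and 0.00209. With the spread estimated over all groups the adjusted p was 0.0817 for Traf5, 0.0687 for Bid and 0.143 for Casp8.

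All 19 IKK and NF-kB genes were tested, and 4 rose (Nfkb2, Relb, Nfkbiz and Bcl3) and 2 fell (Map3k14 and Nfkb1), 31.6% with a median of 0.05 log2 units, a share close to the 28.4% of all genes. Nfkbiz, a nuclear IkB protein, rose by 1.92 log2 units, from 6.23 TPM ± 0.33 to 26.5 TPM ± 3.73 (limma adjusted p = 7.18e-06). Nfkb1, the p105 and p50 precursor gene, fell by 1.24 log2 units, from 57.0 TPM ± 5.89 to 23.7 TPM ± 3.23 (limma adjusted p = 9.54e-05). Bcl3, another nuclear IkB protein, rose by 1.68 from 0.075 TPM to 2.55 TPM, and Nfkb2 rose by 1.04, with limma adjusted p of 7.87e-04 and 0.00274. Map3k14, a kinase upstream of Nfkb2, fell by 0.68 log2 units (limma adjusted p = 0.00874).

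Of 8 ligand sheddases and inhibitors, 7 were tested and 4 fell with none rising, 57.1% with a median of -0.47 log2 units, beside 14.2% of all genes lower. Adam10 went from 231.6 TPM ± 69.9 to 79.4 TPM ± 10.4 (-1.49 log2 units, limma adjusted p = 5.76e-04). Adam17, the protease that releases TNF and its receptors from the membrane, went from 62.4 TPM ± 6.62 to 32.1 TPM ± 5.06 (-0.95, limma adjusted p = 7.84e-04). Sppl2a, an intramembrane protease, and Frmd8, a cofactor of Adam17 trafficking, fell by 0.50 and 0.47 log2 units (limma adjusted p = 0.0149 and 0.0297). The call held in 17 of 19 alternative fits for Sppl2a and in 10 of 19 for Frmd8. Of 14 ubiquitin editors, 13 were tested, with 2 rising (Usp18 and Tnip2) and 2 falling (Tnfaip3 and Sharpin), 30.8% with a median of -0.19, close to the 28.4% of all genes. Usp18, a protease best known for removing the interferon-induced modifier ISG15, rose by 2.55 log2 units (limma adjusted p = 2.71e-06). The changes of Tnip2, Tnfaip3 and Sharpin were within 0.57 log2 units, with adjusted p from 0.0393 to 0.0437 by limma, and were not called in most alternative fits.

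**Figure D4:**
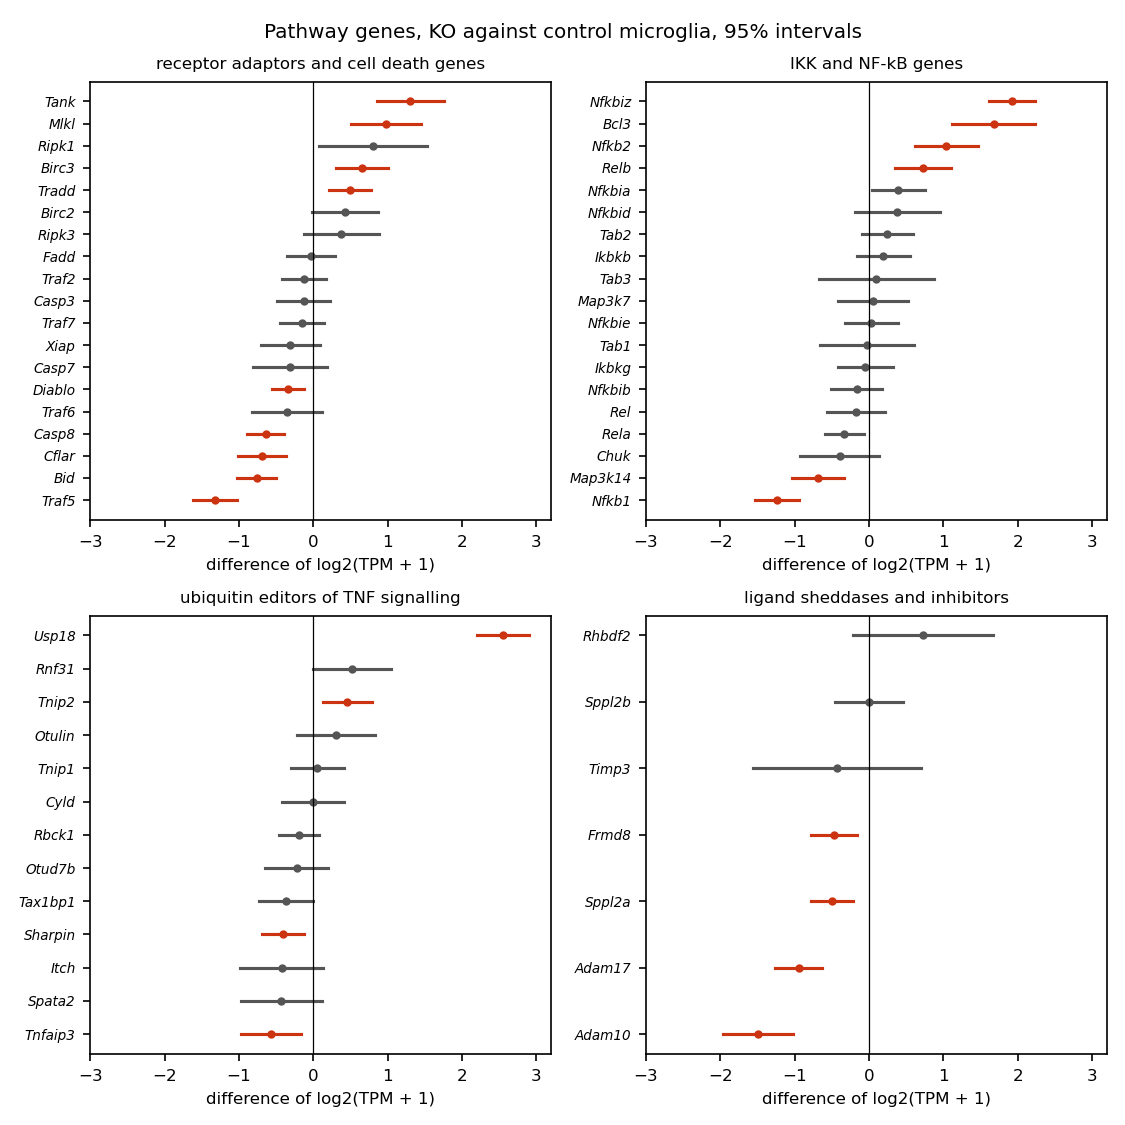
Log2 difference between KO and control microglia with 95% confidence intervals, for the tested genes of the 4 downstream lists, with red marking genes past an adjusted p of 0.05. Calls run in both directions in the adaptor, NF-kB and editor lists, and all 4 calls among the sheddases are below 0.

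In astrocytes none of the 18 tested adaptor and death genes, 16 NF-kB genes or 7 sheddase genes was called by limma, with 1, 0 and 1 of them at an unadjusted p under 0.05. Of the 12 editors 1 was called, Usp18 (2.66 log2 units, limma adjusted p = 0.00913), and 15 of 21 alternative fits kept that call. Usp18 was the only gene called of all 15231 tested (0.00657%). The lists were chosen with earlier results of these data known, so its presence in a list is not a test of TNF signalling. The adjusted p of Usp18 was 0.0758 without KO astrocytes 1, 0.0539 without KO astrocytes 3, 0.0535 without control astrocytes 1 and 0.268 without KO astrocytes 1 and 3, while the difference stayed between 2.39 and 2.62 log2 units in these fits. In the test of the difference between cell types, Nfkbiz (2.05), Bcl3 (1.59), Nfkb2 (1.05) and Tank (1.27) were higher in effect in microglia. Nfkb1 (-1.33), Traf5 (-2.30), Casp8 (-1.50), Cflar (-0.67), Diablo (-0.46), Adam10 (-1.98) and Adam17 (-1.18) were lower, with limma adjusted p of at most 0.0378 for all 11. Those 11 are 5 of 20 adaptor and death genes, 4 of 19 NF-kB genes and 2 of 8 sheddase genes, and 2 of 13 editors (Sharpin and Tax1bp1) were also lower, beside 15.5% of all genes called in either direction. Usp18 did not pass there (-0.11, limma adjusted p = 0.859). Casp8 was at 0.1 to 1.7 TPM in control and 1.4 to 5.3 TPM in KO astrocytes, so part of its difference lies between low values. Traf5 was at 0.0 to 8.2 TPM (mean 5.92) in control and 6.6 to 14.4 TPM in KO astrocytes, so part of its difference lies in astrocytes too. Bcl3 did not exceed 0.2 TPM in astrocytes, which leaves little to measure there.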

How the data were processed

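RNA of sorted microglia and astrocytes was sequenced as paired-end reads of 61 bp per the labels. The deposited values are TPM with 1 decimal, 1 table per library. Build mm10 and the tools STAR 2.6.1e, featureCounts 1.6.2, cutadapt 1.9.1 and Trim Galore 0.4.2 come from the submitters' processing notes. Annotation, strand setting and treatment of multiply mapped reads are not given in the sources used here, and reads behind a TPM value are unknown, so no counting interval is given.

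Groups followed the labels, which do not say more of the animals' origin than the number. TPM were tested as log2(TPM + 1) with limma 3.58.1 (variance trend, two-sided) in R 4.3.3, over genes at 1 TPM or more in at least 4 libraries of the fit, with Benjamini-Hochberg adjustment over all genes. Fold changes on this scale understate low genes. The 1 column of the library without a group was not used. No 2 libraries held identical values. Same-numbered control and KO animals are different mice. Microglia and astrocytes of 1 mouse pair the libraries between cell types, where deviations of same-mouse libraries correlated at 0.089 to 0.219. The rule was to give library values for members called in either genotype comparison or in their difference, and to name up to 4 called genes per downstream list by smallest p. Library values of further genes, and other genes named, were chosen after their values were seen. The members and lists were chosen with earlier results of these data known. The fit was tested on simulated data: of 200 genes changed, 49% were recovered at 1 log2 unit and 84% at 2 in the microglial comparison, with 6.99% of calls false. In astrocytes 50% and 94% were recovered, and for the difference of effects 35% and 77%. The simulation changed 200 genes, whereas 3711 were called in microglia and 1 in astrocytes. These shares are therefore not the power in the data themselves. The alternatives were pseudocount, filter, scaling, variance model, block, shared fit, each kind of control and single libraries left out. Leaving out KO astrocytes 1 and 3 was chosen after seeing the data. The value of 1 marker gene is not reported here.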

Additional observations from a re-analysis of the deposited data

Results flagged for a closer look

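Single libraries stood apart from the rest of their group for 8 of 101 combinations of gene and group screened, all with a highest value of at least 1 TPM. Chance flags about 1 in 20 such groups. Among the members, Tnfsf13 was at 18.6 TPM in KO microglia 4 against 10.6 to 11.3 in the other KO microglia, and Tnfrsf1b at 154.2 TPM in KO microglia 3 against 124.1 to 129.1. In control astrocytes, Tnfrsf12a was at 1.0 TPM in library 2 against 4.7 to 5.5, Tnfrsf26 at 1.4 TPM in library 4 against 0.2, and Tnfsf13os at 1.8 TPM in library 1 against 3.8 to 4.6. Tnfrsf13b was at 2.5 TPM in KO astrocytes 1 against 0.4 to 0.6. That library also had the highest microglial marker sum of the astrocyte libraries (549.6 TPM).

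Of the family genes with other symbols, Cd70 was at 115.9 TPM in KO astrocytes 1 against 1.2 to 2.4 in the other KO astrocytes, and Edar at 1.7 TPM in control astrocytes 1 against 0.4 to 0.6.

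The KO effect differed between microglia and astrocytes, by limma's test of the difference itself, for 6 members: Tnfrsf21 (-3.17 log2 units), Tnfrsf23 (-1.19), Tnfrsf1b (-0.90), Tnfsf13 (1.72), Tnfsf18 (2.11) and Tnfsf9 (1.87). Tnfrsf23 and Tnfsf18 did not exceed 0.3 TPM in any astrocyte library, so for them the test rests on the microglia. Tnfrsf1b did not exceed 0.1 TPM in control astrocytes, and its call held in 13 of 28 alternatives.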

How the results depend on the processing

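The differences followed over the alternatives were those of called members and of members with an unadjusted p under 0.1. In microglia Ltb and up to 4 called genes of each downstream list were followed too, and in astrocytes Usp18. None of these differences changed direction under the alternatives run. In microglia 4 to 7 members were called, against 6 as reported. Tnfrsf21, Tnfsf9 and Tnfsf18 were called in 19 of 19 alternatives and Tnfrsf23 in 18 of 18, whereas Tnfrsf13b and Tnfsf13 were called in 16 of 19. In astrocytes no member was called under any alternative. With the replicate block, where the numbers name different mice in the genotype comparisons (deviations of same-numbered libraries correlated at 0.003 to 0.023 in microglia and at -0.092 to 0.185 in astrocytes), 4 members were called in microglia, without Tnfrsf13b (adjusted p = 0.132) and Tnfsf13 (adjusted p = 0.0642), and 0 in astrocytes. With the animal as the block, 15 were called between the cell types and 5 of 6 in the difference of effects. Over all genes in microglia, the block called 2079 against 3711, and in astrocytes 0 to 5 genes were called against 1, except 88 in 1 fit over all groups.

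Between the cell types, 15 members were called, and 2 with control animals 1 and 2 only and 4 with control animals 3, 4 and 5 only. These subsets keep fewer than 4 libraries of each cell type, so members found in only 1 cell type cannot pass the filter there. Leaving out 1 library gave 8 to 15. The low values, 8 without control microglia 4 or 5 and 9 without control microglia 1 or 2, go with fewer members tested (13 or 14 against 21), since the filter asks for 4 libraries and 3 microglial libraries then remain. In all genes 3339 were called with control animals 1 and 2 only and 6063 with animals 3, 4 and 5 only, against 10078. The depth of the libraries is unknown, and values under 1 TPM rest on few steps of 0.1 TPM. The next counts cover called members, members with an unadjusted p under 0.1 and the downstream genes followed, not all called genes. In microglia 59 recomputed differences fell short of the threshold and 3 newly passed it, beside 463 that stayed on their side. These numbers were 6, 0 and 99 in astrocytes, 7, 4 and 251 between the cell types, and 16, 8 and 337 for the difference of effects. Among the other members, Tnfrsf26 was newly called in microglia in 1 alternative and Tnfsf8 in 2, Tnfrsf4 between the cell types in 1 and Tnfsf8 for the difference in 1.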
